A study of Mus musculus with 13 samples.

Results

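The oxidative phosphorylation genes described here are the protein-coding genes of the mitochondrial genome and the nuclear genes whose symbols begin with the stems of the subunits of complexes I to V. The stems take in the Nduf, Sdh, Uqcr, Cox and Atp5 families, and a gene also needed 10 or more counts summed over all libraries. Of 106 candidates 103 met that minimum, out of 22048 genes counted, and they divide into 13 mitochondrial and 90 nuclear genes. By role the nuclear genes comprise 7 core subunits, 29 accessory subunits and 8 assembly factors of complex I, 4 subunits of complex II, 8 of complex III, 11 of complex IV and 16 of complex V. A further 5 are complex IV isoforms typical of other tissues, and 2 (Atp5s and Cox7a2l) are associated factors. Cox7b2, Cox8b and Cox8c fell under the minimum.

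RNA came from whole mouse liver in 3 groups. The control group (n = 6, with 3 males and 3 females) was not depleted of hepatic stellate cells, pericyte-like cells that store vitamin A. The depleted group (n = 4, with 1 male and 3 females) had lost these cells, by a method that the labels do not state. The hepatectomy group (n = 3, with 2 males and 1 female) kept its stellate cells and was sampled 72 h after partial hepatectomy, when the remaining liver is regrowing. The labels give no strain, age, sham surgery or vehicle, and each library is taken to be 1 liver. By its title the series concerns how stellate cells maintain the liver and hepatocyte proliferation.

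Oxidative phosphorylation is the final stage of respiration. Complexes I and II pass electrons from NADH and succinate to ubiquinone, complex III passes them to cytochrome c and complex IV to oxygen, while complexes I, III and IV pump protons that drive ATP synthesis by complex V. Complex II is built from nuclear gene products alone, and the other complexes combine nuclear and mitochondrial products, so the 2 genomes must be expressed together. Hepatocytes are rich in mitochondria and spend much of this ATP on urea, glucose and protein synthesis.

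Libraries held 35360991 to 51008737 counts. The label of whole liver was met in all groups, as 10 hepatocyte markers summed to 88430 to 157600 CPM (library counts scaled to a common total) in control, 75620 to 175700 in depleted and 141100 to 197000 in hepatectomy livers. The sum of 12 stellate cell markers was 304.9 to 801.3 CPM in control livers and 15.46 to 74.71 in depleted livers, where 12 of 12 markers were lower. Depleted liver 4 held the 74.71 and the other depleted livers at most 19.11, so this liver kept more stellate cell RNA than the rest of its group. 12 monocyte and neutrophil markers summed to 16.3 to 121.1 CPM in control and 649.1 to 1133 in depleted livers, and 9 T cell markers to 3.259 to 5.709 and 44.98 to 110.8. Macrophage (88.77 to 680.6 against 1205 to 2560) and B cell sums (4.787 to 8.236 against 44.51 to 61.18) were also higher after depletion. Of 10 macrophage markers 7 were called higher and 0 lower, where 18.9% of all tested genes were higher. The other markers include 2 below 0, the lowest being Clec4f (log2 fold change -3.0, not called). Of 7 B cell markers 7 were higher. The sum of 10 proliferation markers was 79.56 to 194.6 CPM in depleted livers, where 6 of 10 were higher, against 25.27 to 72.14 in control. In whole tissue, fewer cells of a type and less RNA per cell cannot be told apart. The stellate cell, monocyte, T cell, macrophage and B cell sums of depleted livers overlapped neither the control nor the hepatectomy range. The hepatocyte sums overlapped those of both groups, but single hepatocyte markers differed. Against control, 8 of the 10 had log2 fold changes below 0 and 2 above (median -0.27). Cyp2e1 (-3.24) and Ass1 were called lower and 0 higher, where 15.0% of all tested genes were lower. Against hepatectomy livers all 10 were below 0 (median -0.66). Cyp2e1 (-2.66) and Fgb were called lower there, where 10.1% of all tested genes were lower. The part of these cell types and of proliferation in the depleted-liver results below was not tested.

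Single libraries stood apart for the genes described here. Depleted liver 3, the 1 male of its group and its most deeply sequenced library, was the lowest of its group for 13 of 13 mitochondrial genes. Depleted liver 4 was the highest of its group for 63 of 75 nuclear subunits. Depleted liver 1 was the lowest of its group for 65 of 75 nuclear subunits. Without depleted liver 1, 21 of 88 nuclear genes were lower in depleted livers, against 41 of 89 with it (12.4% and 15.0% of all genes). Control liver 6 was the highest control for 71 of 75 nuclear subunits and held the smallest share of albumin counts, 3.74% against up to 11.65% in the other controls. Control liver 6 also set the low end of several control marker sums, with 88.77 CPM for macrophage markers against 474.4 or more in the other controls, 132.8 against 408.9 or more for sinusoidal endothelial markers, 16.3 against 73.7 or more for monocyte and neutrophil markers, and 304.9 against 544.3 or more for stellate cell markers. Without control liver 6, 37 of 89 nuclear genes were lower in depleted livers, against 41 with it. Counts without depleted livers 3 and 4 are given with each complex.

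The mitochondrial genome codes for 7 subunits of complex I, cytochrome b of complex III, 3 catalytic-core subunits of complex IV and 2 subunits of complex V. Its transcripts are made as long precursors from both strands and cut into single messages. In these counts the 13 genes fell into separate levels. In control livers 7 of them averaged between 212.8 CPM per kb of gene (mt-Nd6) and 14400 (mt-Co1). The other 6, mt-Co2, mt-Atp8, mt-Atp6, mt-Co3, mt-Nd3 and mt-Nd4l, averaged between 0.629 and 3.45 CPM per kb, and none exceeded 3.62 CPM in any library. Summed, these 6 genes had 132 to 401 counts per library, or 0.012 to 0.0203% of all mitochondrial counts.

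Those 6 genes follow each other on the mitochondrial genome, and 5 of them have a near-complete duplicate in the nuclear genome, which is why their sequence is shown here. On chromosome 1, minus strand, between 24611535 and 24616197 (GRCm38, GENCODE M21 annotation), 7 annotated pseudogenes follow the order of the mitochondrial genes. The copy of mt-Co2 (ENSMUSG00000064354, chrM:7013-7696) is Gm28661 at chr1:24614885-24615565, and it matches bases 1 to 681 of the 684 of the gene with 0 mismatches. The copy of mt-Atp6 (chrM:7927-8607) is Gm10925 at chr1:24613974-24614651, with 678 bases and 0 mismatches. The first 60 bases of each gene and copy, 5′ to 3′ on the coding strand, are identical.
mt-Co2: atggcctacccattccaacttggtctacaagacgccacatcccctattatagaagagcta
Gm28661: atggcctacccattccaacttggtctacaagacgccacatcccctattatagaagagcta
mt-Atp6: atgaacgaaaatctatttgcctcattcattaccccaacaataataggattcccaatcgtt
Gm10925: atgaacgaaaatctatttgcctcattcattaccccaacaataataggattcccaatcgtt

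A read from such a stretch fits both places equally well. The annotated copies held 99.6% of mt-Co2 and mt-Atp6, 99.9% of mt-Co3, 99.0% of mt-Nd4l and 98.3% of mt-Nd3. For mt-Atp8 the annotation covers only its last 43 bases (21.1%), but the gene sits between mt-Co2 and mt-Atp6, and the copies of those neighbours are 233 bases apart on both chromosome 1 and the mitochondrial genome. mt-Nd4 (chrM:10167-11544) was shared over 63.6% of its length and kept 502 bases of its own. mt-Co1 (chrM:5328-6872) was shared over its last 483 bases (31.3%), where the copy Gm29216 at chr1:24615706-24616197 differed by the single substitution A1066T, counted from the first base of the gene and shown in capitals.
mt-Co1: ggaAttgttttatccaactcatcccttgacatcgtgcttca
Gm29216: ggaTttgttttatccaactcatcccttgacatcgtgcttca

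A second copy of mt-Co1, Gm13340 at chr2:22588103-22589647 (minus strand), aligned over bases 1 to 1545 of the gene, its whole length, with 1508 identical bases and 37 mismatches.

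mt-Nd1, mt-Nd2, mt-Nd5, mt-Nd6 and mt-Cytb had no such copy among the annotated transcripts. The copies' own counts are not analysed here. How reads with more than 1 matching place were counted is not given in the sources used here. Shared reads being uncertain, the counts of the 6 low genes are not read as transcript levels here, and those of mt-Nd4 and mt-Co1 may hold shared reads in unknown part. The plot of level against copied share sets the 6 low genes apart from the rest.

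**Figure D1:**
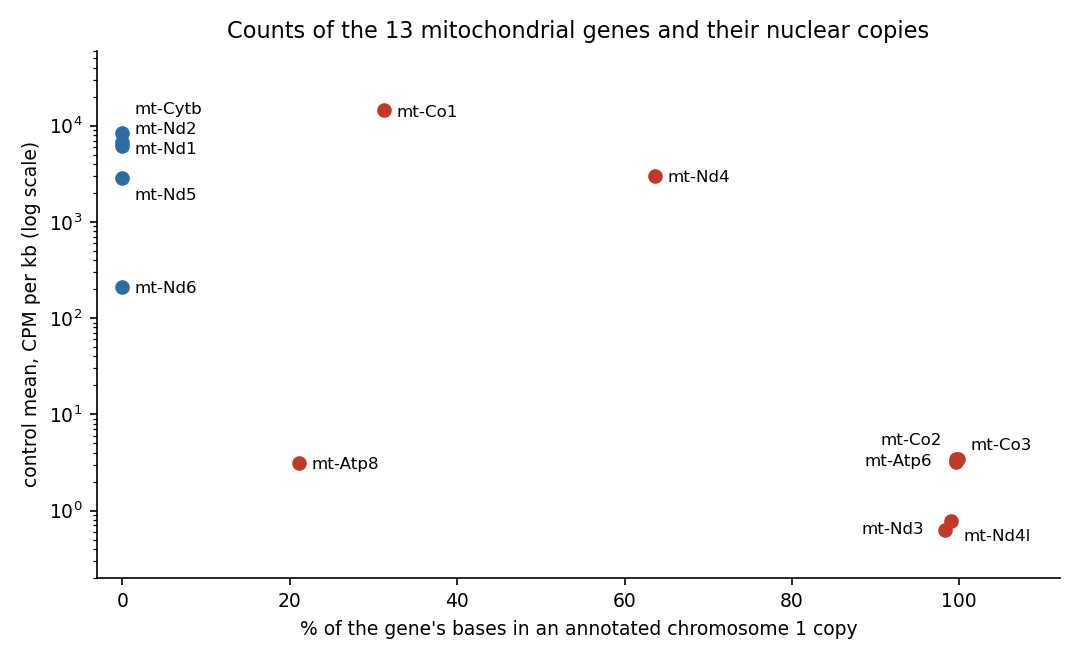
Each point is 1 of the 13 mitochondrial genes: the horizontal axis gives the percent of its bases that lie in an annotated copy on chromosome 1, and the vertical axis its mean level in the 6 control livers in CPM per kb (log scale; blue, no copy; red, with a copy). The 5 genes copied over 98.3% or more lie at or under 3.45 CPM per kb, beside mt-Atp8, while mt-Nd4 (63.6% copied) and mt-Co1 (31.3%) lie with the uncopied genes.

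The 13 mitochondrial genes took on average 3.64% of the counts of depleted livers (SD 1.173, n = 4), 5.473% in control (SD 0.7804, n = 6) and 4.452% after hepatectomy (SD 0.5394, n = 3). By liver the share was 4.435 to 6.658% of counts in control livers (median 5.353%), 4.606, 4.384, 2.017 and 3.555% in depleted livers 1 to 4, and 3.902, 4.475 and 4.98% in hepatectomy livers 1 to 3. Depleted livers 2, 3 and 4 lay below every control and liver 1 did not. Among females alone the depleted range, 3.555 to 4.606%, lay below the control range of 5.059 to 5.977%, and the 1 depleted male (2.017%) lay below the 3 control males (4.435 to 6.658%). The 90 nuclear genes took 1.056 to 1.407% in control, 0.7751 to 1.097% in depleted and 0.9518 to 1.042% in hepatectomy livers, so their depleted and control ranges overlapped through depleted liver 4. Every hepatectomy liver lay below every control in this share of unscaled counts. No test was run on these sums.

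**Figure D2:**
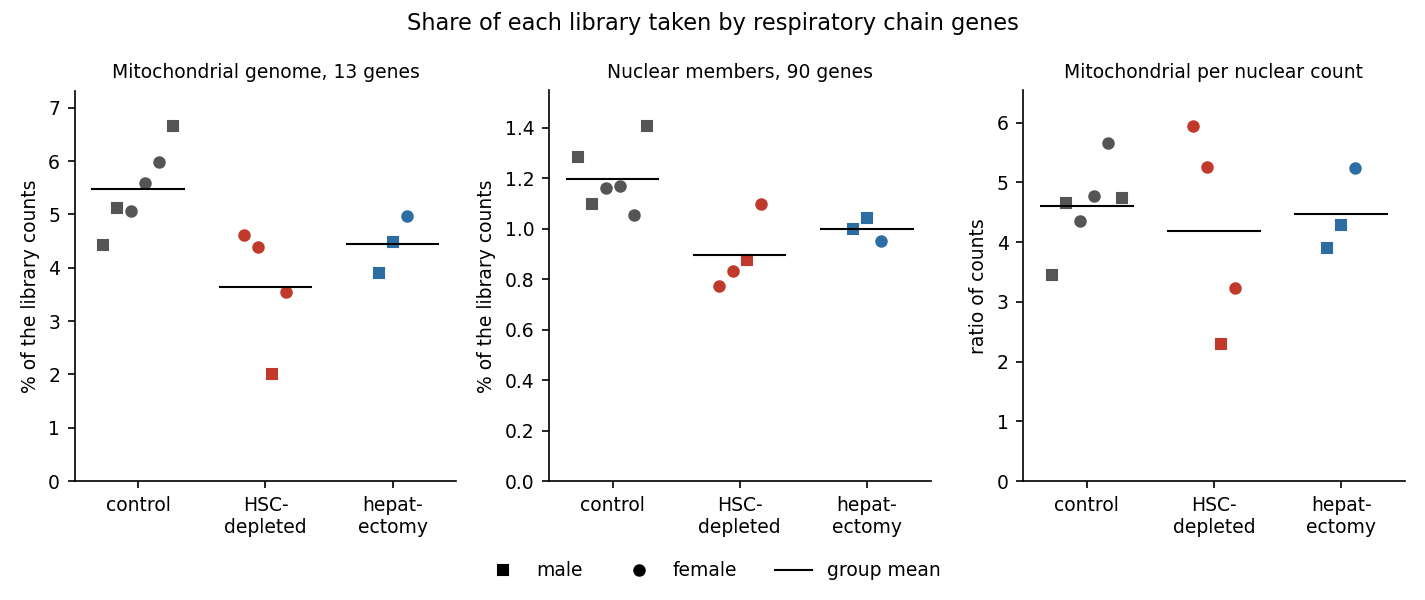
Percent of library counts from the 13 mitochondrial genes (left) and the 90 nuclear genes (middle), and the ratio of the former to the latter (right), with 1 point per liver (square, male; circle, female) and a line at the group mean. In the left panel depleted livers 2, 3 and 4 and hepatectomy liver 1 lie below every control, and depleted liver 1 does not. In the middle panel depleted liver 4 lies inside the control range, and the other depleted livers and every hepatectomy liver lie below it. The ratio of depleted livers spreads from 2.301 in liver 3 to 5.942 in liver 1, beyond the control range of 3.45 to 5.66 at both ends.

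Each gene was then compared between groups with edgeR's quasi-likelihood test, with sex as a covariate and Benjamini-Hochberg adjusted p under 0.05 as the threshold. The test ran over 13831 genes that passed a filter on low counts, among them 102 of the 103 genes described here (not Cox6a2, with 22 counts in all). In depleted against control livers 33.9% of all tested genes differed, with 18.9% higher and 15.0% lower, and all genes had a median of -0.03 on the log2 scale. Against that background of 15.0%, 8 of 13 mitochondrial genes were lower and 0 higher, and 41 of 89 nuclear genes were lower and 1 higher. At an unadjusted p under 0.05, 0 mitochondrial genes were higher, and DESeq2 and limma-voom also called 0. The median log2 fold change was -0.90 for all 13 mitochondrial and -0.43 for the nuclear genes (ratios of 0.536 and 0.743), and 98 of 102 values were below 0. CPM ranges of the groups did not overlap for 5 mitochondrial (3 of them among the 7 more abundant) and 26 nuclear genes, each lower in depleted livers, against 11.9% of all tested genes.

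Of the 7 more abundant mitochondrial genes, 5 were lower in depleted livers: mt-Nd1, mt-Nd2, mt-Nd4, mt-Cytb and mt-Co1. The calls of mt-Nd4 and mt-Co1 carry the limit given above, that reads shared with nuclear copies may be in their counts. mt-Nd2, a proton-pumping subunit of the complex I membrane arm (chrM:3914-4951), had 5813 to 9940 CPM in control livers (median 6693), and 4666, 4115, 2113 and 3856 CPM in depleted livers 1 to 4. The groups did not overlap, and the log2 fold change was -0.99 (SE 0.24, ratio 0.505, edgeR adjusted p = 0.00635). mt-Nd4, the neighbouring pump subunit, had 3608 to 5584 CPM in control (median 3836) and 2793, 3000, 1156 and 2318 in depleted livers, which gave -0.95 on the log2 scale (SE 0.25, edgeR adjusted p = 0.0105). It too had no overlap, with liver 3 far below the other depleted livers.

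mt-Cytb, the b heme subunit through which complex III oxidises ubiquinol, had 8568 to 11120 CPM in control (median 9316) and 7135, 8030, 2720 and 5132 in depleted livers. Its groups did not overlap and its log2 fold change was -0.90 (SE 0.24, edgeR adjusted p = 0.0103). mt-Co1, which holds the oxygen-reducing site of complex IV, had 17370 to 29410 CPM in control (median 21410) and 17200, 17940, 7528 and 12080 in depleted livers. Depleted liver 2 lay inside the control range, and the log2 fold change was -0.81 (SE 0.24, edgeR adjusted p = 0.0213). mt-Nd1, part of the ubiquinone-binding end of complex I, overlapped as well, with 4185 to 8398 CPM in control and 4481, 4259, 2793 and 4019 in depleted livers (log2 fold change -0.65, SE 0.22, edgeR adjusted p = 0.0333).

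mt-Nd5 and mt-Nd6 did not pass the test. mt-Nd5, the subunit at the far end of the membrane arm, had 3931 to 6147 CPM in control livers (median 5572) and 6248, 6835, 1608 and 2440 in depleted livers 1 to 4. Depleted livers 1 and 2 lay above every control and livers 3 and 4 below every control (log2 fold change -0.48, SE 0.36, edgeR adjusted p = 0.337). Relative to mt-Cytb, its counts were 0.876 and 0.851 in depleted livers 1 and 2, 0.591 and 0.475 in livers 3 and 4, 0.4587 to 0.6248 in controls and 0.346 to 0.563 after hepatectomy. mt-Nd6 is the only protein gene on the opposite strand and its 3′ end overlaps that of mt-Nd5, so reads there cannot be assigned without the strand setting of the counting, which is not given. It had 41.4 to 148 CPM in control (median 127) and 105, 71.7, 47.9 and 118 in depleted livers. The lowest control value was that of control liver 6, which was the highest control for the other 6 of these genes.

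Of the 6 low genes mt-Co2, mt-Co3 and mt-Atp6 were called lower and mt-Atp8, mt-Nd3 and mt-Nd4l were not. mt-Atp6 had 71 to 118 counts in the control libraries and 69, 62, 26 and 69 in the depleted ones. mt-Nd4l had 6 to 13 counts in control and 11, 20, 4 and 5 in depleted livers. For the reason given above these calls are not read as changes of the messages.

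The mitochondrial calls changed with single livers. Without depleted liver 3, 1 of 12 tested mitochondrial genes, mt-Nd2, was called lower (log2 fold change -0.68, SE 0.21, edgeR adjusted p = 0.0403), against 8.55% of all genes. The median over the 7 more abundant genes went from -0.81 to -0.53, and mt-Cytb (-0.57, adjusted p = 0.052) and mt-Nd4 (-0.61, adjusted p = 0.0565) missed the threshold in edgeR's test narrowly, and mt-Co1 (-0.53, adjusted p = 0.135) and mt-Nd1 (-0.47, adjusted p = 0.189) by more. mt-Nd1 was also lost without depleted liver 4 (adjusted p = 0.0517). Leaving out control liver 5 left 3 of the 7 more abundant genes lower, and 6 of all 12 tested mitochondrial genes. In the females alone 0 of 12 were called, with a median of -0.52 over the 12 and of -0.48 over the 7 more abundant genes.

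Complex I takes electrons from NADH through 7 nuclear core subunits in its matrix arm. All 7 had values below 0 and 5 were lower in depleted livers, with a median log2 fold change of -0.49. Ndufs1, the largest core subunit and a carrier of iron-sulfur clusters (chr1:63143596-63176833, GRCm38), had 144 to 166 CPM in control livers (median 159) and 103, 120, 83.1 and 81.0 in depleted livers 1 to 4. Every depleted liver lay below every control, and the log2 fold change was -0.72 (SE 0.13, ratio 0.609, edgeR adjusted p = 0.00114). Ndufv1, which binds NADH and flavin, had 133 to 203 CPM in control and 87.1 to 110 in depleted livers (log2 fold change -0.63, SE 0.13, edgeR adjusted p = 0.00295). Ndufv2 (-0.41) passed too, while Ndufs8 (-0.33) did not. With depleted liver 3 left out, 3 of 7 were lower, Ndufs1 among them (adjusted p = 0.0129), and with depleted liver 4 left out 6 of 7 were.

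Among 29 accessory subunits, which surround the core and stabilise it, 11 were lower, 0 were higher and 28 had values below 0. DESeq2 and limma-voom called 0 of them higher as well. Ndufb9, of the membrane arm, had the lowest value, with 129 to 232 CPM in control livers (median 148) and 73.5, 97.8, 91.2 and 109 in depleted livers. The groups did not overlap (log2 fold change -0.75, SE 0.17, edgeR adjusted p = 0.00387). Ndufb10 (-0.69), Ndufa10 (-0.58), Ndufb11 (-0.57), Ndufb5 (-0.56), Ndufa6 (-0.49), Ndufv3 (-0.47), Ndufb8 (-0.46), Ndufb6 (-0.45), Ndufa9 (-0.44) and Ndufab1 (-0.44), the last also the acyl carrier protein of mitochondrial fatty acid synthesis, completed the list. At the other end Ndufa8 was the 1 subunit above 0, at 50.2 to 93.2 CPM in control and 57.2, 56.6, 71.3 and 91.7 in depleted livers (log2 fold change 0.16, adjusted p = 0.501). Ndufa2 (-0.01) and Ndufa7 (-0.03) were near 0 as well. Leaving out depleted liver 3 left 3 of 29 lower, Ndufb9 among them (adjusted p = 0.035). The count was 21 without depleted liver 4, 4 without depleted liver 1 and 5 without control liver 3, so it moved with each of these livers. It was 4 with scaling by library size alone (10.6% of all genes lower) and 0 in the females alone (6.40%). The 3 of 29 without depleted liver 3 and the 4 without depleted liver 1 were near the shares of all genes (8.55% and 12.4%).

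Of 8 complex I assembly factors, which are not part of the finished enzyme, 3 were lower. Ndufaf1, needed to build the membrane arm, had 28.2 to 43.5 CPM in control livers (median 31.9) and 19.5, 21.4, 17.8 and 21.3 in depleted livers, with no overlap (log2 fold change -0.74, SE 0.14, edgeR adjusted p = 0.00127). Ndufaf7, a methyltransferase, gave -0.54 and Ndufaf6 -0.52. The other 5 ranged from -0.39 (Ndufaf4) to -0.05 (Ndufaf5). Ndufaf1 still passed without depleted liver 3 (adjusted p = 0.0136) and Ndufaf7 did not (adjusted p = 0.0853). Of the 8, 1 was lower without depleted liver 3 (8.55% of all genes), 2 without depleted liver 1 or control liver 3, and 4 without depleted liver 4.

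Complex II, which is also succinate dehydrogenase of the citric acid cycle, had 3 of 4 subunits lower. Sdha, the flavin-bearing catalytic subunit (chr13:74322254-74350280), had 588 to 675 CPM in control livers (median 642) and 418, 455, 342 and 348 in depleted livers. The gap between the groups was wider than the spread within either, and the log2 fold change was -0.73 (SE 0.13, ratio 0.601, edgeR adjusted p = 0.00109). Sdhb, the iron-sulfur subunit, had 152 to 224 CPM in control and 126, 148, 127 and 144 in depleted livers (log2 fold change -0.48, SE 0.14, edgeR adjusted p = 0.0172). Of the membrane anchors, Sdhd passed (-0.43, SE 0.14, edgeR adjusted p = 0.0275) and Sdhc did not (-0.27, SE 0.12, adjusted p = 0.0971). Sdhc levels overlapped, with 130 to 178 CPM in control and 107, 130, 119 and 131 in depleted livers. Sdha passed without depleted liver 3 (adjusted p = 0.0122), and Sdhb (adjusted p = 0.104) and Sdhd (adjusted p = 0.164) did not. Of the 4 subunits 1 was lower without depleted liver 1 or control liver 3, and 3 without depleted liver 4.

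Complex III had 5 of 8 nuclear subunits lower and the most negative median of the nuclear groups, -0.56. Its core proteins Uqcrc1 and Uqcrc2, which face the matrix, had the lowest values. Uqcrc2 (chr7:120635176-120659524) had 258 to 322 CPM in control livers (median 275) and 175, 186, 161 and 164 in depleted livers (log2 fold change -0.72, SE 0.11, ratio 0.607, edgeR adjusted p = 0.000292). Uqcrc1 had 226 to 317 CPM in control and 140, 164, 154 and 175 in depleted livers (log2 fold change -0.72, SE 0.13, edgeR adjusted p = 0.00103). Neither overlapped. Uqcrfs1, the Rieske iron-sulfur protein that moves electrons on to cytochrome c1, gave -0.57, beside Uqcrb (-0.58) and Uqcr11 (-0.54). Uqcrh (-0.37), Uqcrq (-0.36) and Uqcr10 (-0.29) did not pass. Without depleted liver 3, 2 of 8 were lower, Uqcrc2 (adjusted p = 0.00408) and Uqcrc1 (adjusted p = 0.0115), and without depleted liver 4 all 8 were. Without depleted liver 1 or control liver 3 the count was 3.

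Complex IV had 4 of 11 liver subunits lower: Cox7a2 (-0.55), Cox7b (-0.47), Cox5b (-0.45) and Cox7c (-0.45). All 11 values were below 0 and lay close together, from -0.55 to -0.25. Cox7a2, the liver form of subunit 7a, had 80.9 to 151 CPM in control livers (median 97.0) and 53.8, 61.9, 67.5 and 88.8 in depleted livers (SE 0.17, edgeR adjusted p = 0.0262). The groups overlapped through depleted liver 4. Cox4i1, the general form of the regulatory subunit 4, did not pass (log2 fold change -0.41, SE 0.20, adjusted p = 0.127), with 243 to 480 CPM in control and 172, 199, 226 and 298 in depleted livers. Its highest control, 480 CPM, was liver 6 and its highest depleted value, 298, liver 4. With depleted liver 3 left out, 0 of 11 passed edgeR's test (Cox7a2 adjusted p = 0.17, Cox7b adjusted p = 0.116), as in the females alone. Without depleted liver 4, 10 of 11 did, with Cox4i1 (adjusted p = 0.019), Cox6a1 (adjusted p = 0.00641) and Ndufa4 (adjusted p = 0.0457) among them. The count was 1 of 11 without depleted liver 1, without control liver 3 and with scaling by library size alone.

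The isoforms of subunits typical of other tissues were scarce, at 0.0725 to 1.77 CPM per kb in control livers, against up to 524 for Ndufa4. Cox7a1, the heart and muscle form of subunit 7a, had 11 to 36 counts in the control libraries and 12, 12, 10 and 9 in the depleted ones (log2 fold change -1.42, SE 0.46, edgeR adjusted p = 0.0312). The call was lost without control liver 3 (adjusted p = 0.069) and without any single depleted liver (0.051 to 0.116). Cox4i2, the form of subunit 4 known from lung and from low oxygen, was the only nuclear gene called higher. It had 0 to 9 counts in control and 12, 3, 41 and 22 in depleted livers (log2 fold change 2.02, SE 0.70, edgeR adjusted p = 0.0417), and limma-voom did not call it (adjusted p = 0.102). The call was also lost in 7 of the 13 omissions of a library, and without depleted liver 1, 3 or 4, which hold most of its counts in the depleted group, the gene fell under the filter. Ndufa4l2, the counterpart of Ndufa4 in low oxygen, had 59 to 80 counts in control and 61, 73, 61 and 66 in depleted livers and did not pass (log2 fold change -0.25, adjusted p = 0.486). Cox7a2l, which joins complexes III and IV into supercomplexes, had 64.4 to 88.4 CPM in control and 72.4, 77.3, 73.9 and 89.9 in depleted livers, overlapping ranges that did not pass (log2 fold change 0.08, adjusted p = 0.63).

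Complex V, the ATP synthase, had 9 of 16 nuclear subunits lower. Atp5b, the catalytic beta subunit (chr10:128083273-128090391), had 1233 to 1448 CPM in control livers (median 1381) and 793, 937, 794 and 749 in depleted livers. The lowest control stood well above the highest depleted liver (log2 fold change -0.73, SE 0.12, ratio 0.603, edgeR adjusted p = 0.000532). Atp5a1, its alpha partner, gave -0.49 (SE 0.12, edgeR adjusted p = 0.00794) and Atp5c1, the rotating gamma subunit, -0.59. Among the 3 genes for the c ring Atp5g1 (-0.61) and Atp5g3 (-0.58) were lower and Atp5g2 (-0.22) was not. Atp5k, subunit e of the dimer interface, had 75.6 to 126 CPM in control and 44.4, 51.5, 50.7 and 75.2 in depleted livers (log2 fold change -0.68, SE 0.18, edgeR adjusted p = 0.0117). Atp5f1 (-0.53), Atp5o (-0.53) and Atp5d (-0.43) were also lower, and Atp5l, subunit g, was the nearest to 0 (-0.09). Without depleted liver 3, 2 of 16 were lower (8.55% of all genes), Atp5b among them (adjusted p = 0.006), and Atp5k was not (adjusted p = 0.0851). The count was 12 without depleted liver 4, 6 without depleted liver 1 and 7 without control liver 3.

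**Figure D3:**
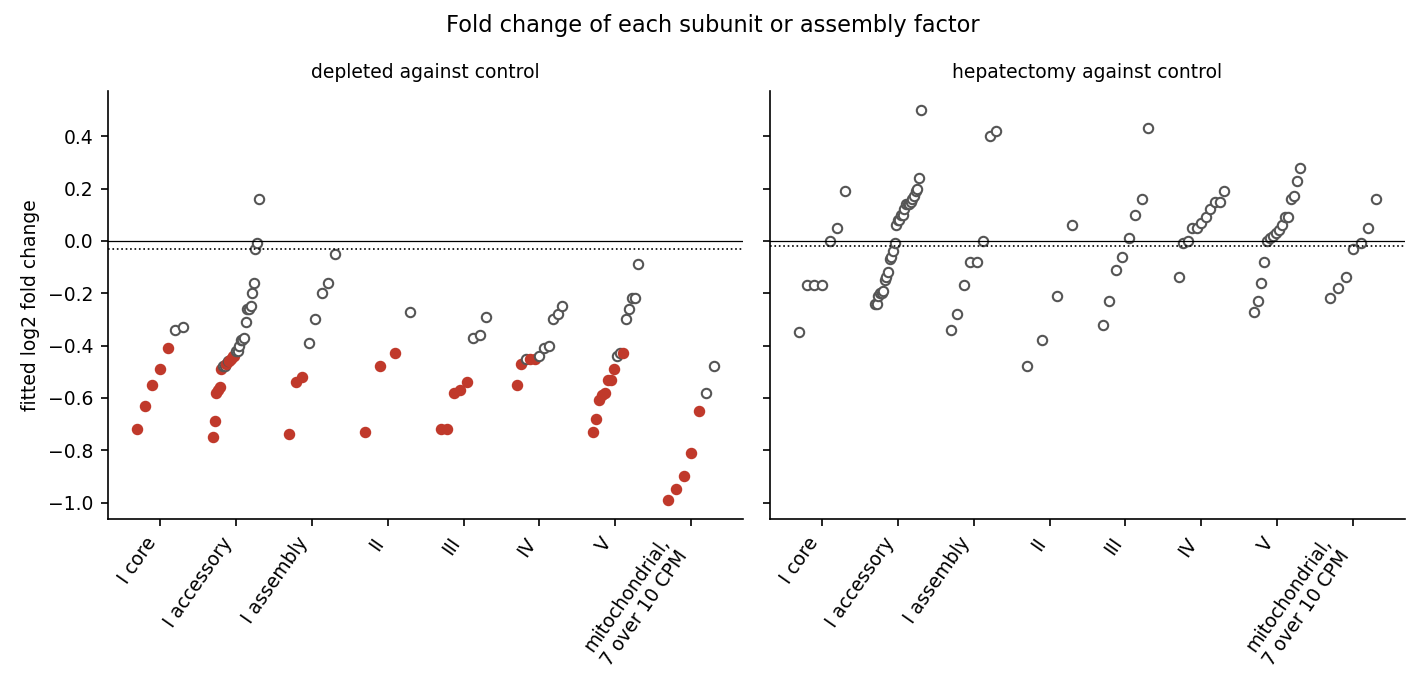
Fitted log2 fold change of the 75 nuclear subunits of the liver complexes, the 8 complex I assembly factors and the 7 more abundant mitochondrial genes (the isoforms of other tissues, the associated factors and the 6 low mitochondrial genes are not drawn), for depleted (left) and hepatectomy livers (right) against control; filled red points passed an adjusted p of 0.05 in edgeR's quasi-likelihood test, open points did not, and the dotted line is the median of all genes (-0.03 and -0.02). On the left all points drawn but Ndufa8 lie below 0 and reach -0.99 for mt-Nd2, and on the right no point drawn passed.

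**Figure D4:**
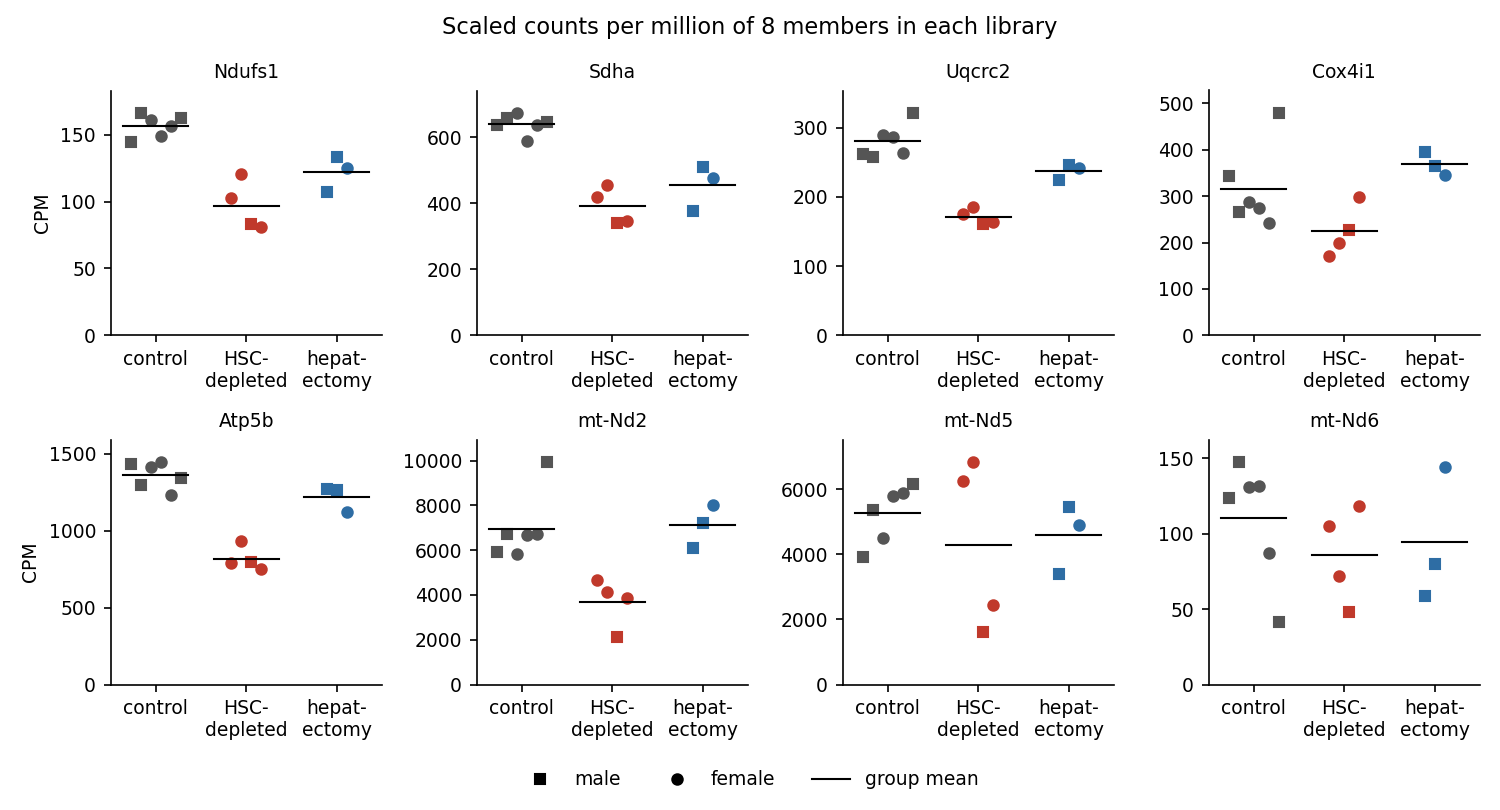
CPM of 8 genes in each liver (square, male; circle, female; line, group mean), with each axis starting at 0. Ndufs1, Sdha, Uqcrc2, Atp5b and mt-Nd2 separate depleted from control livers, Cox4i1 and mt-Nd6 overlap, and mt-Nd5 has depleted livers 1 and 2 (6248 and 6835 CPM) above the controls and 3 and 4 (1608 and 2440) below.

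The nuclear calls were also sensitive to single libraries. Without depleted liver 3, 12 of 88 nuclear genes were lower (8.55% of all genes), all 12 among the 41, with Atp5b, Ndufaf1, Ndufb9, Ndufs1, Sdha, Uqcrc1 and Uqcrc2 among them. Without depleted liver 4, 64 were lower, 40 of them among the 41, against 16.7% of all genes. Leaving out depleted liver 1 gave 21 (12.4% of all genes) and control liver 3 gave 23 (13%). The females alone gave 7 (6.40% of all genes), with Atp5b, Ndufaf1, Sdha, Uqcrc1 and Uqcrc2 among them. The median log2 fold change ran from -0.54 (without depleted liver 4) to -0.31 (without depleted liver 3) over the 13 omissions, and was -0.27 in females. Scaling by library size alone, which moved the median of all genes from -0.03 to 0.08 and the share of calls that were higher from 55.7 to 66.2%, left 22 nuclear and 6 mitochondrial genes lower, against 10.6% of all genes.

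**Figure D5:**
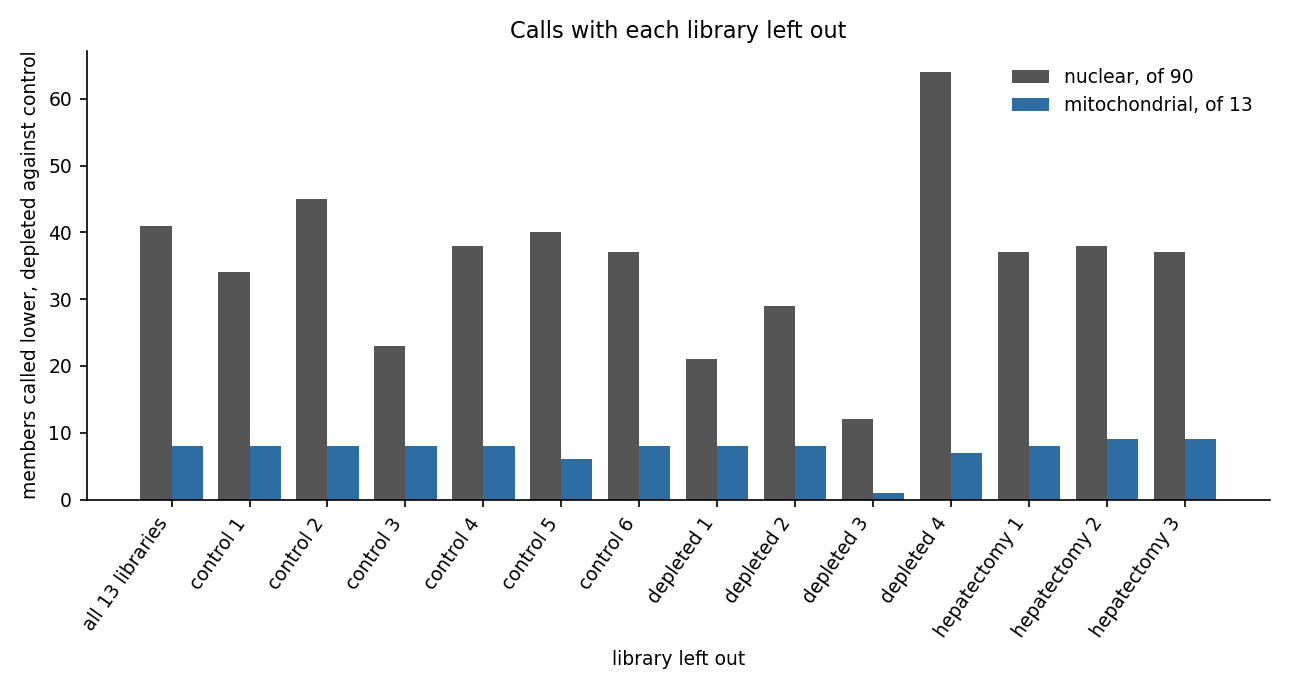
Number of nuclear (gray) and mitochondrial genes (blue) called lower in depleted against control livers with all 13 libraries and with each library left out in turn (bars start at 0). The nuclear count runs from 12 without depleted liver 3 to 64 without depleted liver 4, and the mitochondrial count drops from 8 to 1 without depleted liver 3.

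Hepatectomy livers were compared with the same control libraries, so this comparison shares its controls with the one above. Of all tested genes 8.42% differed, with 6.06% higher and 2.36% lower. Blocking on the replicate number left 460 genes higher and 172 lower, against 838 and 326, and gave the same counts for the members. 0 of 13 mitochondrial genes passed edgeR's test (0 at an unadjusted p under 0.05, and 0 by DESeq2 and by limma-voom), with a median log2 fold change of 0.03. Of 89 nuclear genes 1 was higher and 0 were lower, with a median of 0.01. At an unadjusted p under 0.05, 4 were higher and 5 lower, and DESeq2 and limma-voom each called 1 lower. With library size alone as the scaling the median of all genes moved from -0.02 to -0.24, that of the nuclear genes to -0.20 and that of the mitochondrial genes to -0.18, so the direction of these medians depends on the scaling. Under that scaling 9 of 89 nuclear genes were lower, no larger a share than the 11.3% of all genes.

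The gene called higher was Cox6b2, a form of subunit 6b typical of testis, which was singled out after its values were seen because it was the single call. It had 3 to 12 counts in the control libraries, 58, 124 and 29 in hepatectomy livers and 32, 4, 12 and 41 in depleted livers (hepatectomy against control log2 fold change 3.21, SE 0.69, edgeR adjusted p = 0.0148). Without hepatectomy liver 2 no nuclear gene was called. Sdha came next to the threshold with 376, 511 and 478 CPM after hepatectomy, all below the lowest control of 588 (log2 fold change -0.48, SE 0.14, adjusted p = 0.0554). Ndufs1 (107, 133 and 125 CPM, log2 fold change -0.35), Ndufaf1 (-0.34), Uqcrc1 (-0.32) and Uqcrc2 (-0.23) also lay below every control without passing, and with Atp5c1 (-0.27) that made 6 nuclear genes, against 6.25% of all genes, while Cox6b2 alone lay above every control, against 7.41%. Mitochondrial levels overlapped those of controls, for example 6116, 7222 and 8039 CPM for mt-Nd2 and 9758, 9702 and 11940 for mt-Cytb. Proliferation markers, 10 of 10 of which were higher after hepatectomy, summed to 110.7 to 689.1 CPM there and 25.27 to 72.14 in control livers. Also higher were 6 of 11 tested monocyte and neutrophil markers (sums of 90.46 to 262.9 CPM against 16.3 to 121.1), the bile duct keratins Krt7 and Krt19 and the hepatocyte gene Fgb, and the B cell genes Ms4a1 and Pax5 were lower. The part of these markers in the hepatectomy values was not tested.

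Set against each other directly, depleted livers had 16 of 89 nuclear and 6 of 13 mitochondrial genes lower than hepatectomy livers and 0 higher, where 10.1% of all genes were lower. At an unadjusted p under 0.05 the nuclear genes were 47 lower and 1 higher and the mitochondrial genes 9 lower and 0 higher, and DESeq2 and limma-voom called 0 higher in both. Ranges did not overlap, with depleted livers lower, for 55 nuclear and 7 mitochondrial genes (3 of them among the 7 more abundant), against 15.9% of all genes. Among the nuclear calls were Atp5b (log2 fold change -0.57, SE 0.14, edgeR adjusted p = 0.0128) and Uqcrc2 (-0.49, SE 0.13, edgeR adjusted p = 0.0161). Sdha (-0.25, SE 0.16, adjusted p = 0.281) and Sdhb (-0.10, SE 0.16, adjusted p = 0.711) did not pass, and their hepatectomy values (376 to 511 and 125 to 161 CPM) overlapped those of the depleted livers. mt-Nd2 (-1.03, SE 0.27, edgeR adjusted p = 0.0167) and mt-Cytb (-1.06, SE 0.28, edgeR adjusted p = 0.015) were among the mitochondrial ones, which came to 3 of the 7 more abundant genes. Without depleted liver 3, 0 nuclear genes and 1 mitochondrial gene passed (4.79% of all genes lower), and with library size alone 0 and 3 did (4.41%). The nuclear count was 38 without control liver 6 (11.2% of all genes lower) and 49 without depleted liver 4 (13.7%). It was 6 without depleted liver 1 (7.15%) or hepatectomy liver 2 (7.13%) and 5 without hepatectomy liver 3 (7.30%), shares of the 89 near or under those of all genes.

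The wider respiratory pathway was read from gene lists set by function, whose counts stand beside the 15.0% of all tested genes that were lower and the 18.9% that were higher in depleted livers. Of the electron carriers beside the complexes, Cyc1, the cytochrome c1 of complex III, was lower in depleted livers, with 155 to 225 CPM in control and 84.9, 110, 87.2 and 110 in depleted livers (log2 fold change -0.86, SE 0.14, edgeR adjusted p = 0.000532). Cycs, cytochrome c itself, was not (-0.14, adjusted p = 0.497). Of 18 citric acid cycle genes 11 were lower, led by Dlat, a pyruvate dehydrogenase subunit, at 53.2 to 69.1 CPM in control and 28.8, 32.2, 24.1 and 31.4 in depleted livers (log2 fold change -1.15, SE 0.12, edgeR adjusted p = 2.52e-05). The list's median was -0.50. Of 17 genes for other electron donors and ubiquinone synthesis 8 were lower, with Coq8a, a ubiquinone biosynthesis factor, the lowest at -1.45.

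Among genes that express the mitochondrial genome, of 15 transcription and replication genes 5 were lower, among them Tfam, the factor that packages and activates mitochondrial DNA (42.6 to 57.4 CPM in control, 33.5, 32.5, 31.3 and 37.5 in depleted livers, log2 fold change -0.53, SE 0.11, edgeR adjusted p = 0.00326), and Mgme1, a mitochondrial nuclease (-1.04). Polrmt, the mitochondrial RNA polymerase, did not pass (-0.20, adjusted p = 0.357). Of 18 RNA processing and stability genes 10 were lower. Grsf1, a protein of mitochondrial RNA granules, had 113 to 153 CPM in control and 74.0, 75.6, 73.1 and 71.7 in depleted livers (log2 fold change -0.74, SE 0.10, edgeR adjusted p = 0.000144). Lrpprc, which stabilises mitochondrial messages, was lower (-0.56, SE 0.13, edgeR adjusted p = 0.00584) and its partner Slirp was not (0.03, adjusted p = 0.906).

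Assembly genes with other names were counted by complex in the same comparison. For complex I 4 of 9 were lower (Dmac2 the lowest, -0.96), for complex III 2 of 6 (Uqcc1, -0.65), and for complex V 2 of 5 (Tmem70, -0.49). For complex II 0 of 4 passed, nor did any at an unadjusted p under 0.05 or by DESeq2 or limma-voom. For complex IV 2 of 23 (8.7%, under the share of all genes) were lower (Cox11 and Sco1) and Coa6 was higher (0.67, SE 0.16, edgeR adjusted p = 0.00495). Of 11 protein quality control genes 6 were lower, with the protease Lonp1 at -0.72 and the chaperone Hspd1 at -0.51. Of 10 mitochondrial translation factors 2 were lower (20%; Tufm, the elongation factor, -0.66), and of 11 mitophagy and dynamics genes 2 were lower (18.2%) and Fundc1, a mitophagy receptor, was higher (0.70), both near the share of all genes.

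These list counts also changed with single libraries. Leaving out depleted liver 3, with 8.55% of all genes lower, left 8 of 18 citric acid cycle genes, 4 of 17 for other electron donors and ubiquinone, 5 of 15 for transcription and replication, 7 of 18 for RNA processing, 3 of 11 for protein quality control, 3 of 9 for complex I assembly and 1 of 10 for translation. The lower counts of complex IV and complex V assembly were then 0, and those of the carriers and of mitophagy and dynamics 1 each. The complex IV count was also 0 without depleted liver 1 and 1 without control liver 3, 4 or 5 or depleted liver 2. That of complex V was 1 without control liver 1, 3, 4, 5 or 6 or depleted liver 1 or 2. In the females alone (6.40% of all genes) 7 citric acid cycle, 4 electron donor, 3 transcription, 5 RNA processing and 2 quality control genes were lower, and with scaling by library size alone (10.6%) 9, 5, 5, 5 and 4.

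Ucp2, an inner membrane carrier that is plentiful in macrophages and lymphocytes, had 13.3 to 33.2 CPM in control livers and 139, 94.9, 253 and 279 in depleted livers (log2 fold change 2.87, SE 0.31, edgeR adjusted p = 3.23e-05). It was also 47.6 to 57.1 CPM after hepatectomy, above every control, though not past the threshold (0.97, adjusted p = 0.0949). Of 8 carriers tested 3 were higher (37.5%) and 2 lower (25%) after depletion. Of 13 regulators of mitochondrial biogenesis Myc was higher (2.01, SE 0.44, edgeR adjusted p = 0.00383) and Ppara and Yy1 were lower, or 7.69% and 15.4%, about at or under the shares of all genes. Ppargc1a, the coactivator best known for raising these genes, did not pass (0.23, SE 0.37, adjusted p = 0.67), with values from 6.84 to 18.8 CPM in depleted and 7.72 to 19.0 in control livers. Its relative Ppargc1b was lower after hepatectomy (log2 fold change -1.61, SE 0.46, edgeR adjusted p = 0.0483) with 1.5, 1.095 and 5.29 CPM against 4.38 to 9.76 in control, a call that was lost under 13 of the 22 other settings tried.

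After hepatectomy few genes of these lists passed. Fh1, the fumarase of the citric acid cycle, was higher (252, 377 and 193 CPM against 143 to 178 in control, log2 fold change 0.76, SE 0.18, edgeR adjusted p = 0.0219), and so was Mrrf, a ribosome recycling factor (0.52, SE 0.11, edgeR adjusted p = 0.0132). Dlat (-0.46), Idh3b, Nfe2l2, Grsf1 (-0.38), Fastkd1, a mitochondrial RNA-binding protein (-0.70, SE 0.18, edgeR adjusted p = 0.0348), and Polg2, the accessory subunit of the mitochondrial DNA polymerase (-0.99, SE 0.28, edgeR adjusted p = 0.049), were lower. Tfam did not pass (0.00, SE 0.12, adjusted p = 0.986).

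Nuclear respiratory genes are known to share promoter motifs. Promoters from RefSeq (GRCm38.p6, 250 bases before to 50 after the start) were found for 72 of the 90 nuclear genes and searched on both strands. The NRF1 letters GCATGCGC were present in 12 of 72 (16.7%), against 2.80% of 27025 promoters of all genes and 5.02% of the 10825 promoters of tested genes. The ETS letters CCGGAAG were in 23.6% against 9.12% and 17.05%, the YY1 letters AAGATGGCG in 9.7% against 1.49% and 2.97%, and the ERR alpha letters TCAAGGTCA in 2.8% against 0.41% and 0.27%. Among the 33 lower genes with a promoter and the 39 others, the NRF1 letters were in 5 and 7, the ETS letters in 7 and 10, the YY1 letters in 1 and 6 and the ERR alpha letters in 2 and 0. The 30 bases around the match are shown for 2 lower genes, Sdhb (chr4:140961206-140961235, plus strand) and Atp5k (chr5:108434430-108434459, minus strand, where 2 matches on opposite strands overlap), and for Ndufa8 (chr2:36049328-36049357, minus strand), which was not lower. Capitals mark the matched letters, whose first base lies 54, 50 and 8 bases before the RefSeq start.
Sdhb: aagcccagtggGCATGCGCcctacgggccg
Atp5k: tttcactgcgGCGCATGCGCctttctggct
Ndufa8: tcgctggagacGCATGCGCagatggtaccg

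A match is a string of letters in this window and not a measured binding site.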

How the data were processed

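RNA-seq of 13 mouse livers was read from 1 deposited table of raw read counts per gene. Per the submitters' processing notes, the authors used mm10, STAR 2.7.1a, SAMtools 1.15.1 and featureCounts 1.6.4. Settings for strand, multi-mapped and overlapping reads are not given in the sources used here. Per the labels, 500 ng of total RNA entered a stranded mRNA kit, which enriches polyadenylated RNA, and the pool was run on 2 lanes. No label says that replicates are separate animals, so p-values measure the spread between these libraries. Within groups, library pairs differed beyond sampling noise (median chi-square per gene 4.60 or more).

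Gene IDs were matched to GENCODE M21 (21818 of 22048). edgeR 4.0.16 (R 4.3.3, limma 3.58.1) with TMM scaling, filterByExpr, group and sex was fitted to all 13 libraries, with adjusted p under 0.05 as the threshold, and tested on simulated counts. CPM are TMM-scaled. log2 CPM used a prior count of 2. Named genes were every mitochondrial gene, the 2 largest called rises and falls per complex among genes with a mean log2 CPM of at least 1, a fixed list of subunits and isoforms, and outside the set a fixed list and the largest called change of each list. Other genes are named as examples of the counts given, and 1 gene is counted but not reported here by name. Members and lists were chosen with earlier results of these data known. Alternatives were other scalings, DESeq2 1.42.0, limma-voom, no filter, no sex term, a replicate block, fewer samples and each library left out.

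Same-numbered livers of control and hepatectomy deviated together from their group means (r of 0.107 to 0.523 over 3 pairs), which met the criterion for pairing only before sex was removed. Each of these pairs is of 1 sex, and with sex removed the values were -0.191 to 0.0836. Livers of like sex but different number reached 0.458 (hepatectomy 3, control 5) and 0.469 (hepatectomy 2, control 6), so these values do not show a pairing beyond sex. Those of depleted and control livers did not (-0.34 to 0.0729 over 4 pairs, or -0.0981 to 0.416 with sex removed).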

Additional observations from a re-analysis of the deposited data

Results flagged for a closer look

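Among 80 sets of 4 to 6 livers checked for a value set apart from the rest of its group, 5 were found, where chance marks about 1 in 20 and so about 4. Control liver 6 had 9940 CPM of mt-Nd2 against 5810 to 6720 in the other controls, and 5580 CPM of mt-Nd4 against 3610 to 4230. Depleted liver 3 had 0.803 CPM of mt-Co3 against 1.59 to 1.72 in the other depleted livers, and 0.454 CPM of mt-Atp6 against 1.39 to 1.54, both genes with near-complete copies on chromosome 1. Cox6a2, the heart form of subunit 6a, had 0.0891 CPM (4 counts) in depleted liver 4 and 0 in the other 3 depleted livers.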

How the results depend on the processing

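Over the 3 comparisons, 70 values of genes named by rule were called, and none changed sign under the alternatives listed in the methods. With females only 16 of 39 kept their call, and otherwise 32 of 69 (without depleted liver 3) to 70 of 70 did, with 56 under the replicate block and 46 by library size alone. Counts of calls moved as follows. For depleted against control livers, nuclear genes lower numbered 41, and 22 by library size alone, 23 under the replicate block and 7 in females only; 40 to 48 passed with DESeq2 size factors, mitochondrial rows left out of the scaling, DESeq2, limma-voom, no filter or no sex term. Mitochondrial genes lower numbered 8, and 0 in females only. The 1 nuclear gene higher became 0 with limma-voom, the block, only these 2 groups fitted, and females only. For hepatectomy against control livers, nuclear genes lower numbered 0, but 9 by library size alone (where 11.3% of all genes were lower) and 1 each with DESeq2, limma-voom and no sex term. For depleted against hepatectomy livers, nuclear genes lower numbered 16, and 0 by library size alone, 28 with DESeq2, 38 without the sex term and 7 with only these groups. Mitochondrial ones numbered 6, and 3 by library size alone. The causes were not tested.

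With each library left out in turn, depleted against control gave 0 to 1 nuclear higher, 12 to 64 nuclear lower and 1 to 9 mitochondrial lower. Hepatectomy against control gave 0 (without hepatectomy liver 2) to 2 nuclear higher and 0 to 1 lower. Depleted against hepatectomy gave 0 (without depleted liver 3) to 49 nuclear lower (without depleted liver 4) and 1 to 7 mitochondrial lower. The replicate number as a block changed the nuclear count by more than 1.5 times only for depleted against control livers, where the numbers did not pair the livers. The scarce complex IV isoforms had 0 to 124 counts a library.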
